A study of Danio rerio with 2 samples.

Results

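The genes of the tektins and of other proteins that line the inside of ciliary microtubules were followed in the testis and ovary of adult wild-type zebrafish. The set was defined by name as tekt1, tekt2, tekt3, tekt4, enkur, saxo2, efhc2, ribc2 and mns1. Each of the 9 symbols was carried by 1 Ensembl identifier, so the set holds 9 of the 24539 genes of the deposited table. Gene names are spelled as in the symbol table used, which gives most of these genes in capitals. Testis was represented by 1 RNA sequencing library and ovary by 1, each from a pool of 3 fish, and both organs carried the WT genotype; the sources used here do not state strain or age. Pooling leaves the variation between fish unmeasured. Since each organ has a single library, the differences below could not be checked against replicates, and none carries a p-value.

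Motile cilia and sperm flagella are built on a core called the axoneme, a ring of doublet microtubules around a central pair. Each doublet joins a complete A-tubule to an incomplete B-tubule, and a set of microtubule inner proteins coats the inside walls of both and stabilises them while the tail beats. Tektins are coiled-coil proteins that form filaments along the A-tubule. In a gonad, the cells known to build a motile axoneme are chiefly the male germ cells after meiosis, which grow the sperm tail.

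The deposited values were FPKM, fragments scaled to the length of the gene and to the size of the library, so levels can be compared between genes. The columns summed to 562394 in testis and 572635 in ovary, and no read counts were used. Steps between the low values of 1205 genes placed the worth of 1 read in testis at 1.09 times that in ovary. At that ratio 168 genes lay on the steps, against 54 for the median of the ratios scored. Only a limited range of ratios around 1 was scored, so a larger difference in depth could not have been found. Within that range the libraries appear to be of similar depth. Markers of the gonads followed the organ labels, except the genes listed for follicle cells, which were split. All 7 germ cell markers listed for the testis were higher there (157 to 532 FPKM in testis, 0.07 to 71.6 in ovary). They do not mark male germ cells alone, since DDX4, DAZL and PIWIL1 read 71.6, 62.3 and 33.5 FPKM in ovary. All 3 Sertoli markers and all 4 Leydig markers were also higher in testis. All 9 oocyte markers were lower in testis (1.27 to 9.86 FPKM in testis, 26.6 to 4862 in ovary). Of 5 genes listed as follicle cell markers, 4 were measured, and testis had the higher value for 2 of these and ovary for 2. Their values ran from 0.01 to 137 FPKM in testis and only from 0.07 to 4.29 in ovary. The 2 higher in testis were inha (137 FPKM in testis, 3.06 in ovary) and FSHR (4.72 in testis, 0.07 in ovary). The 2 higher in ovary were CYP19A1 and foxl2l (0.49 in testis, 4.29 in ovary). Whether these 4 genes mark follicle cells, or follicle cells alone, was not tested, so their split is not a result about that cell type. CYP19A1, which makes oestrogen, was listed at the smallest value of 0.01 in testis against 2.04 in ovary. Markers of other tissues also moved with the organ. The 2 muscle markers read 23.6 and 67.8 FPKM in testis against 2.07 and 1.02 in ovary, the 4 liver markers 4.33 to 24.6 in testis against 0.06 to 1.09 in ovary, and the 2 blood markers 142 and 50.1 in testis against 12.8 and 0.94 in ovary. Their part in the differences below was not tested. For the kidney tubule, whose cells carry motile cilia, the transporter genes SLC12A1 and SLC12A3 and the cadherin gene CDH17 were low in both organs, with 0.83, 0.19 and 1.12 FPKM in testis against 0.10, 0.15 and 0.31 FPKM in ovary. Of the other 3 of the 6 measured markers of that list, PAX8 read 0.73 FPKM in testis against 0.16 in ovary, and 2 were called higher in ovary: clcnk, at 0.43 FPKM in testis against 8.14 in ovary, and TRPM7, at 8.57 in testis against 30.4 in ovary. None of the 6 was called higher in testis, but 3 of them, SLC12A1, SLC12A3 and PAX8, could not be called. They were under 1 FPKM in both organs, the minimum of the rule given below. The plain value was higher in testis for these genes and for CDH17. Whether the 6 listed genes mark kidney tubule cells alone, and whether such cells were present in either sample, was not tested.

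All 9 members were called higher in testis. The rule asked for a 2-fold difference after adding 1 FPKM to each value, and for 1 FPKM or more in the higher library. Across the 19053 genes that reached 1 FPKM in either library, the same rule called 45.1% higher in testis and 16.6% higher in ovary. The 9 genes passed the minimum, 5 of them through the testis value alone because their ovary value was under 1 FPKM. The log2 ratios of testis to ovary had a median of 4.45, beside 0.80 over the 19053 genes and 0.48 over all 24539. With a 4-fold rule 8 of the 9 were called higher in testis, beside 21.6% of the genes tested, and 6.19% of those genes were called higher in ovary. Summed over the set, testis held 1665 FPKM, 0.296% of that library, and ovary held 40.8 FPKM, 0.00712%. In bulk tissue, fewer cells of a type and less RNA per cell cannot be told apart.

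**Figure D1:**
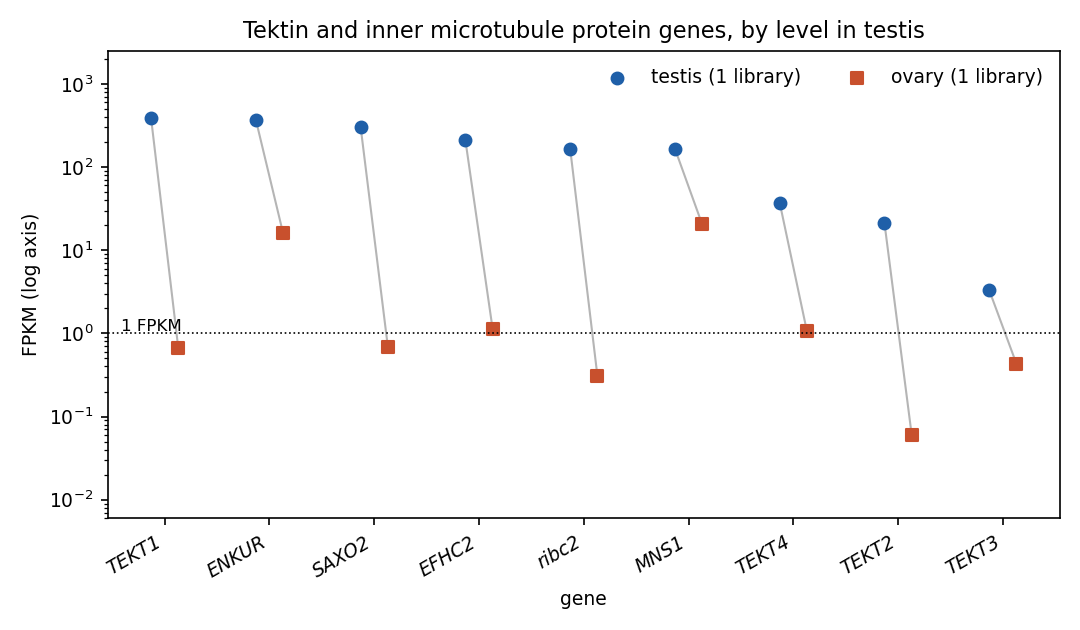
FPKM of each of the 9 genes in testis (circles) and ovary (squares), 1 library each, on a log axis, ordered by the testis value; a grey line joins the values of a gene and the dotted line marks 1 FPKM. The 6 genes on the left stand between 166 and 386 FPKM in testis, and ENKUR and MNS1 are the only ones of the 9 above 10 FPKM in ovary.

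In testis the tektin genes differed from each other more than the other members did: TEKT1 was above TEKT3 by a ratio of 117 in FPKM, while the other 5 members spanned 166 to 370 FPKM. TEKT1 (ENSDARG00000101331) stood at 386 FPKM in testis against 0.66 in ovary. It was the most abundant of the 9 in testis and the gene with rank 152 of 24539 there, while 43.7% of all genes were lower than it in ovary. Its plain ratio was 586, or 581 to 590 when only the rounding of the deposited values is counted. On the log2(FPKM + 1) scale the ratio was 7.87, which has rank 8 among the 19053 genes tested.

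TEKT4 (ENSDARG00000028899) stood at 37.2 FPKM in testis against 1.06 in ovary, a plain ratio of 35.1 and a log2 ratio of 4.21. Mouse Tekt4 is known for its part in the movement of the sperm tail. The zebrafish gene was the tektin with the highest ovary value, and its testis value was lower than that of TEKT1 by a ratio of 10.4 on the FPKM scale.

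TEKT2 (ENSDARG00000028973) stood at 21.2 FPKM in testis against 0.06 in ovary. The mouse gene is needed for the sperm tail and for the inner dynein arms. Only 17.8% of all genes were lower than TEKT2 in ovary, the lowest ovary value of the 9. The plain ratio was 353, with a wide range of 325 to 385 from rounding alone. Because the added 1 FPKM outweighs so low a value, its log2 ratio was only 4.39. Its rank was 125 of 17836 genes by the plain ratio but 635 of 19053 on the log2(FPKM + 1) scale. The 2 ranks cover different genes. Ranks by plain ratio leave out tested genes listed at 0.01 in either organ, among them 1139 at 0.01 in ovary.

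TEKT3 (ENSDARG00000045038) was the lowest member in testis, at 3.30 FPKM, and stood at 0.43 in ovary. The plain ratio was 7.67 and the log2 ratio 1.59, the smallest of the 9. The gene lay in the middle of the testis library, with 43.7% of all genes lower. It is the member whose call depends on the rule: with a pseudocount of 5 FPKM its log2 ratio was 0.61, and with the median ratio of all tested genes set to 0 it was 0.79, both under 2-fold.

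The 4 tektin genes together gave 448 FPKM in testis against 2.21 in ovary. TEKT1 made up 86.2% of that sum in testis and 29.9% in ovary, whereas TEKT4 made up 8.30% in testis and 48.0% in ovary. TEKT2 gave 4.72% of the testis sum and 2.71% of the ovary sum. TEKT3 gave 0.736% in testis and 19.5% in ovary. The order of the tektins was therefore TEKT1, TEKT4, TEKT2, TEKT3 in testis and TEKT4, TEKT1, TEKT3, TEKT2 in ovary, where 3 of the 4 lay under 1 FPKM and the order rests on small values of 1 library.

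EFHC2, ribc2 and MNS1 encode proteins of the A-tubule. EFHC2 (ENSDARG00000004204), whose product is related to the algal doublet protein Rib72, stood at 210 FPKM in testis against 1.13 in ovary. Its plain ratio was 186 and its log2 ratio 6.63. The gene ranked 298 in the testis library and 12457 in the ovary library.

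The gene ribc2 (ENSDARG00000075177), a relative of the algal ribbon protein Rib43a, stood at 166 FPKM in testis against 0.31 in ovary. The plain ratio was 536, within 528 to 545 by rounding, and the log2 ratio was 6.996. By plain ratio ribc2 came next after TEKT1 among the 9, with rank 50 against rank 40.

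MNS1 (ENSDARG00000060169) had almost the same testis level as ribc2, 166 FPKM, but 20.5 FPKM in ovary. In the mouse, Mns1 was named for a nuclear protein of meiotic germ cells and is needed for sperm tails and for left-right asymmetry. Its zebrafish counterpart had the highest ovary value of the 9, above 79.8% of all genes of that library. The plain ratio was 8.11 and the log2 ratio 2.96. The ratio of ribc2 to MNS1 on the FPKM scale was 1.00 in testis and 0.0152 in ovary.

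SAXO2 (ENSDARG00000006474), named as a stabiliser of axonemal microtubules, stood at 304 FPKM in testis against 0.69 in ovary. Its plain ratio was 441 and its log2 ratio of 7.50 had rank 16 among the genes tested, so that with TEKT1 and ribc2 it was among the 3 members with a log2 ratio near 7 or more.

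ENKUR (ENSDARG00000031248) encodes enkurin, a B-tubule protein first described in mouse sperm as a partner of calcium channels and known for its role in left-right asymmetry. It stood at 370 FPKM in testis, next below TEKT1, and at 16.0 FPKM in ovary, above 76.2% of all genes there. Its plain ratio was 23.1 and its log2 ratio 4.45. The ratio of TEKT1 to ENKUR in FPKM was 1.04 in testis and 0.0413 in ovary.

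Most of the ovary signal of the set came from ENKUR and MNS1. The 2 genes made up 89.4% of its ovary sum, against 32.2% of its testis sum, and the other 7 genes together gave 1129 FPKM in testis and 4.34 FPKM in ovary. These 2 genes were picked out after their values were seen.

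**Figure D2:**
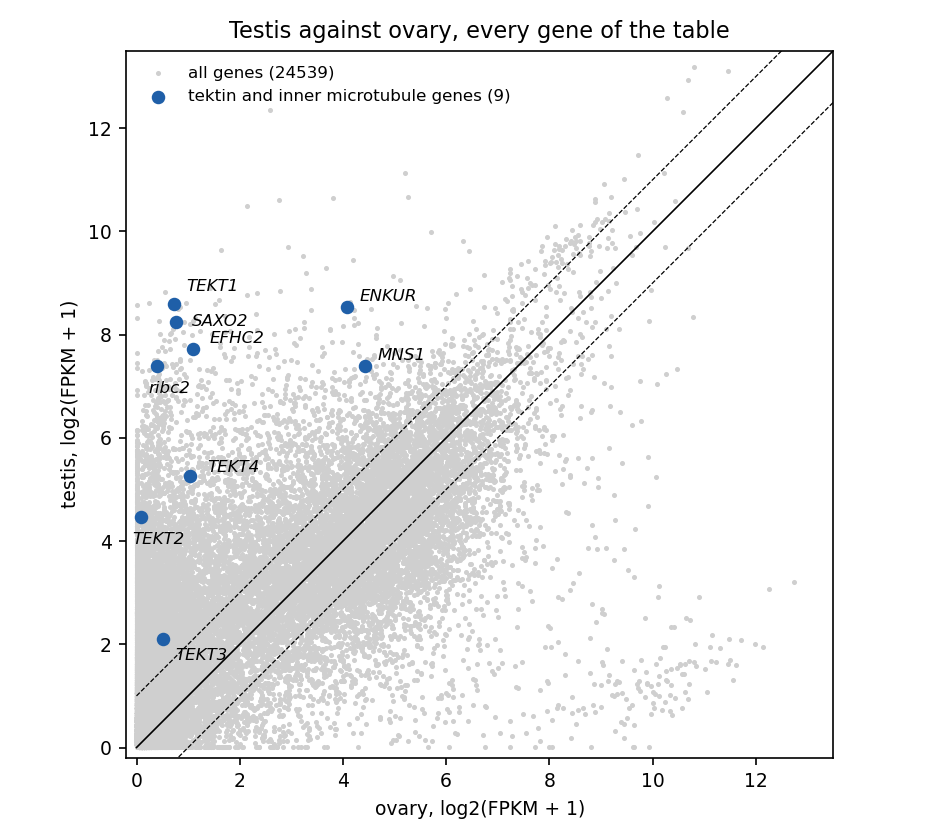
Every gene of the table, with log2(FPKM + 1) in ovary on the horizontal axis and in testis on the vertical axis; the 9 genes are in blue, the solid line marks equal values and the dashed lines 2-fold differences. The 9 genes lie above the upper dashed line, with TEKT3 the closest to it and ENKUR and MNS1 to the right of the others.

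By level in testis, 6 members (TEKT1, ENKUR, SAXO2, EFHC2, ribc2 and MNS1) lay above 100 FPKM in testis, a level reached by 3.65% of all genes, and the other 3 were the tektins TEKT4, TEKT2 and TEKT3. Between 166 and 386 FPKM in testis, the range those 6 genes span, the table held 276 genes in all. Of these, 176 (63.8%) were called higher in testis and 33 (12.0%) were under 1 FPKM in ovary, and the median ovary value was 62.0 FPKM. The 6 members were among the 176, and TEKT1, SAXO2 and ribc2 were among the 33. The members' own ends define this range, so the shares are a description.

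By name, several members have relatives that were also measured, and these pairs were chosen after their values were seen. RIBC1 stood at 181 FPKM in testis against 0.32 in ovary, so ribc2 and RIBC1 were close in both organs, with a ratio of 0.919 in testis. The tektin-like gene tektl1 read 189.5 FPKM in testis against 2.66 in ovary, a level between TEKT1 and TEKT4 in testis. Another SAXO gene, saxo4, read 69.7 FPKM in testis against 0.08 in ovary. The symbols tekt5 and saxo1 were not matched and were not analysed here. The sources used here do not state how reads were divided between related genes.

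Other genes of microtubule inner proteins had the same direction. Of 39 symbols written for that list, 23 were measured, and 23 of the 23 were higher in testis by the 2-fold rule (background 45.1%), with a median log2 ratio of 6.03 and quartiles of 4.82 and 6.75. The median is the value of CFAP68, which was listed at 0.01 in ovary (65.1 FPKM in testis), and the next member, saxo4, also lay at 6.03. The gene cimip2c was likewise listed at 0.01 in ovary and stood at 28.2 FPKM in testis, so no plain ratio is given for either. Members of this list spanned 28.2 to 449 FPKM in testis against 0.01 to 17.5 FPKM in ovary. Of the 23, 10 were under 1 FPKM in ovary and so passed the minimum through the testis value alone.

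The most abundant of them was cimip2b, at 449 FPKM in testis against 4.03 in ovary. CFAP20, which encodes a protein of the inner junction, where the B-tubule closes onto the A-tubule, stood at 289 FPKM in testis against 17.5 in ovary. The B-tubule gene CFAP52 read 178 FPKM in testis against 6.22 in ovary, and cfap210 read 213 and 2.71.

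Further members with a known place inside the doublet were cfap126 (257 FPKM in testis, 0.57 in ovary), cfap77 (233 in testis, 0.55 in ovary) and pierce1 (228 in testis, 7.24 in ovary). The smallest log2 ratio in the list was 2.25 for NME7, chosen after its values were seen, at 85.4 FPKM in testis against 17.1 in ovary; its product is also known as a partner of the gamma-tubulin ring that starts microtubules. As with ENKUR and MNS1, a minority of this list thus held ovary values over 10 FPKM, namely CFAP20 and NME7.

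**Figure D3:**
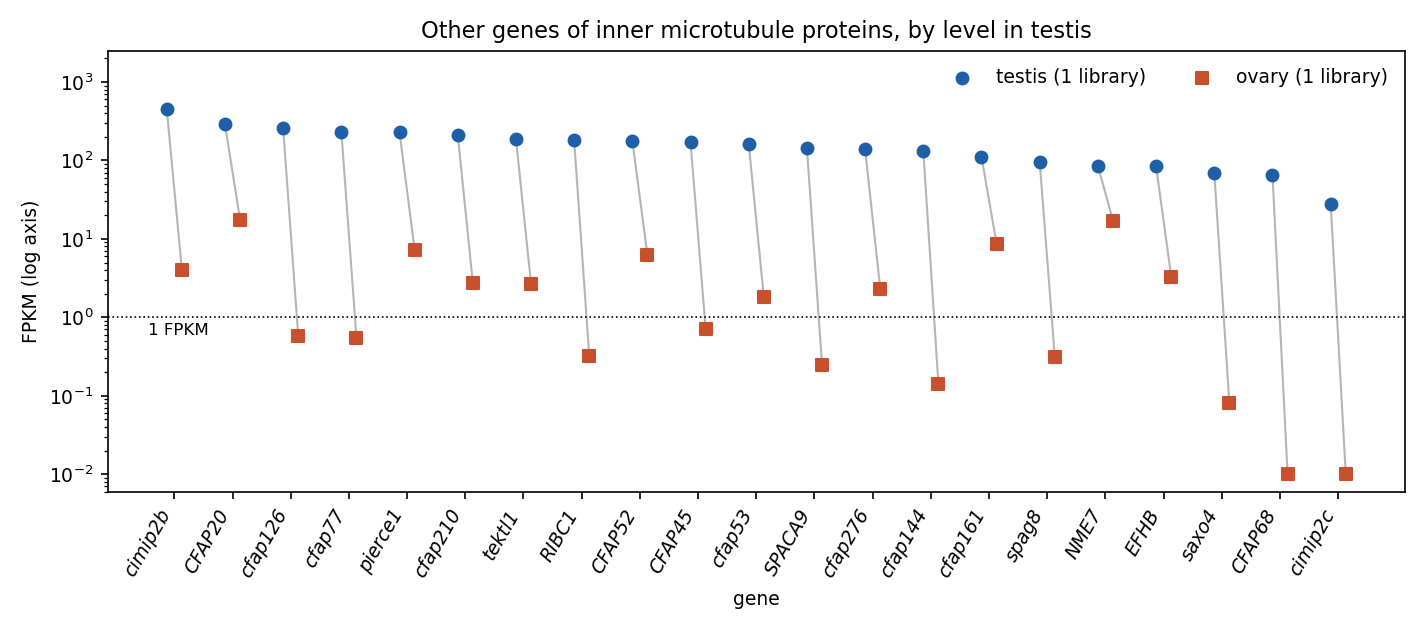
FPKM in testis (circles) and ovary (squares), 1 library each, of 21 of the 23 measured genes of other microtubule inner proteins, on a log axis and ordered by the testis value; cfap276 is the name written for an identifier with a clone symbol. Every testis value lies above 20 FPKM, ovary values lie between 0.01 and 17.5 FPKM, and CFAP68 and cimip2c sit at the smallest value the table lists.

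Genes of neighbouring axonemal structures gave medians on the same side. Radial spokes and the nexin-dynein regulatory complex carry signals between the central pair and the motors; in that list 25 of 26 measured genes were higher in testis (background 45.1% of tested genes and 35.0% of all genes), and the median log2 ratio was 5.71. DNAJB13 stood at 279 FPKM in testis against 8.45 in ovary, GAS8 at 270 in testis against 12.5 in ovary, and RSPH4A at 261 in testis against 0.59 in ovary. The remaining member, fbxl13, was under the minimum, at 0.54 FPKM in testis against 0.01 in ovary. For axonemal dyneins, the motors, and their docking factors, 23 of 23 genes were higher in testis (background 45.1%) and the median log2 ratio was 5.14. Under 1 FPKM in ovary were 17 of these 23 genes and 18 of the 26 of the radial spoke list, fbxl13 included. Those of them that were called passed the minimum through the testis value alone. Of the 19053 tested genes, 6306 were under 1 FPKM in ovary. The radial spoke list was written with 28 symbols and the dynein list with 26, and those not matched to a single gene were left out. DNALI1 stood at 354 FPKM in testis against 9.48 in ovary, odad3 at 182 in testis against 0.26 in ovary, and DYNLRB2 at 173 in testis against 0.45 in ovary. The median of the 9 tektin and inner microtubule genes, 4.45, was lower than the medians of these 3 lists, and no test of that difference was made. The order depended on the pseudocount: with 5 FPKM the median of the 9 genes was 4.16, above 4.09 for the radial spoke list and 3.42 for the dyneins. Without the tektins, the other 5 members had a median of 6.63, and the 4 tektins alone had one of 4.30.

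Regulators of ciliary genes ranged from 1.97 to 124 FPKM in testis against 0.03 to 47.6 FPKM in ovary. Of 17 symbols written for that list, 11 were measured. All 11 were higher in testis (background 45.1%) and the median log2 ratio was 2.25. Of the 11, 7 were under 1 FPKM in ovary and so passed the minimum through the testis value alone. The median is the value of rfx5, at 8.44 FPKM in testis against 0.98 in ovary. Rfx genes were listed by family name, so a ciliary role of each of them, rfx5 included, is not shown here. FOXJ1, written foxj1a in the list and known as a master regulator of motile cilia, stood at 68.9 FPKM in testis against 0.27 in ovary, and its paralogue foxj1b, chosen after its values were seen, at 46.8 in testis against 0.12 in ovary. The gene rfx3 stood at 121 FPKM in testis against 11.6 in ovary, and E2F5 at 124 in testis against 47.6 in ovary.

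Microtubule genes outside the cilium were called in both directions, and their shares were not tested against those of all genes. Of 27 symbols written for spindle and cytoplasmic microtubule proteins, 17 were measured. Of these 17 genes, 8 were called higher in testis (background 45.1% of tested genes and 35.0% of all genes). A further 3 were called higher in ovary (background 16.6% of tested genes), 4 differed by less than 2-fold and 2 were under the minimum. The 17 include those 2, which the tested genes leave out. The median log2 ratio was 0.84, or 0.042 after centring on the median of all tested genes. MAPRE1, a plus-end binding protein gene, stood at 561 FPKM in testis against 165 in ovary, and NUSAP1, of the spindle, at 220 in testis against 93.6 in ovary. TPX2, a spindle assembly factor gene, stood at 190 FPKM in testis against 377 in ovary. With a log2 ratio of -0.98 it was among the 4 that differed by less than 2-fold. The 3 called higher in ovary were map7a (0.09 FPKM in testis, 6.13 in ovary), map7b (9.09 in testis, 43.0 in ovary) and mtus1a (1.72 in testis, 31.8 in ovary).

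**Figure D4:**
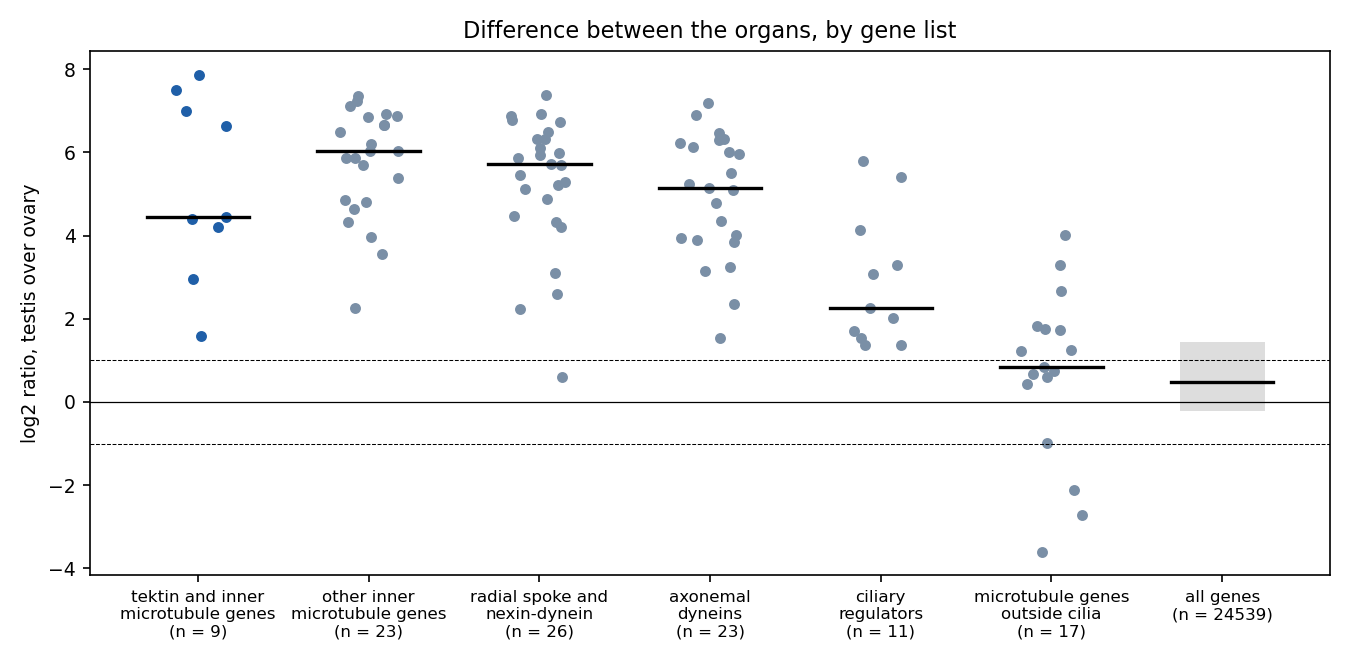
Log2 ratio of testis over ovary on the log2(FPKM + 1) scale, 1 point per gene, for the 9 tektin and inner microtubule genes and 5 other lists; black bars are medians, and for all 24539 genes the grey box spans the quartiles. The medians are 4.45, 6.03, 5.71, 5.14, 2.25 and 0.84 from left to right, beside 0.48 for all genes.

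The genes whose 2 values were most like the medians of the set were sought among 14721 other genes with an informative symbol. Likeness was the distance to the median point of the 9 genes (166 FPKM in testis, 0.69 in ovary) in log2(FPKM + 1) of both libraries, 2 values per gene. That point pairs the testis value of ribc2 with the ovary value of SAXO2, so no member lies on it. Genes near it need not be like each member. The nearest was CFAP45, a B-tubule gene, at 171 FPKM in testis against 0.71 in ovary (distance 0.0426). Next came oc90 (172 FPKM in testis, 0.61 in ovary), the Sertoli hormone gene amh (160 in testis, 0.80 in ovary) and the histone variant gene MACROH2A2 (179 in testis, 0.79 in ovary). SPAG6, cfap251, DYNLRB2 and dnaaf6, all known from the axoneme, its motors or its assembly, completed the 8 nearest genes, with distances of 0.182 to 0.263. A set of 28 genes lay within a distance of 0.5.

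The place of the 9 genes in the genome was read only as an order of genes, from the RefSeq assembly GRCz12tu, since the submitters' processing notes name another build. No member was the nearest protein-coding neighbour of another. Of their 18 nearest protein-coding neighbours, 11 were matched to the table. By the 2-fold rule 5 of the 11 were higher in testis, none was higher in ovary, 2 differed by less and 4 were under the minimum, with a median log2 ratio of 0.82. Across all genes of the table, including those under the minimum, 35.0% were called higher in testis. The neighbours with the highest levels, chosen after their values were seen, were olah beside TEKT2 (31.6 FPKM in testis, 4.02 in ovary) and fundc1 beside EFHC2 (28.5 in testis, 19.6 in ovary). Every measured neighbour had a smaller log2 ratio than each of the 8 members other than TEKT3.

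**Figure D5:**
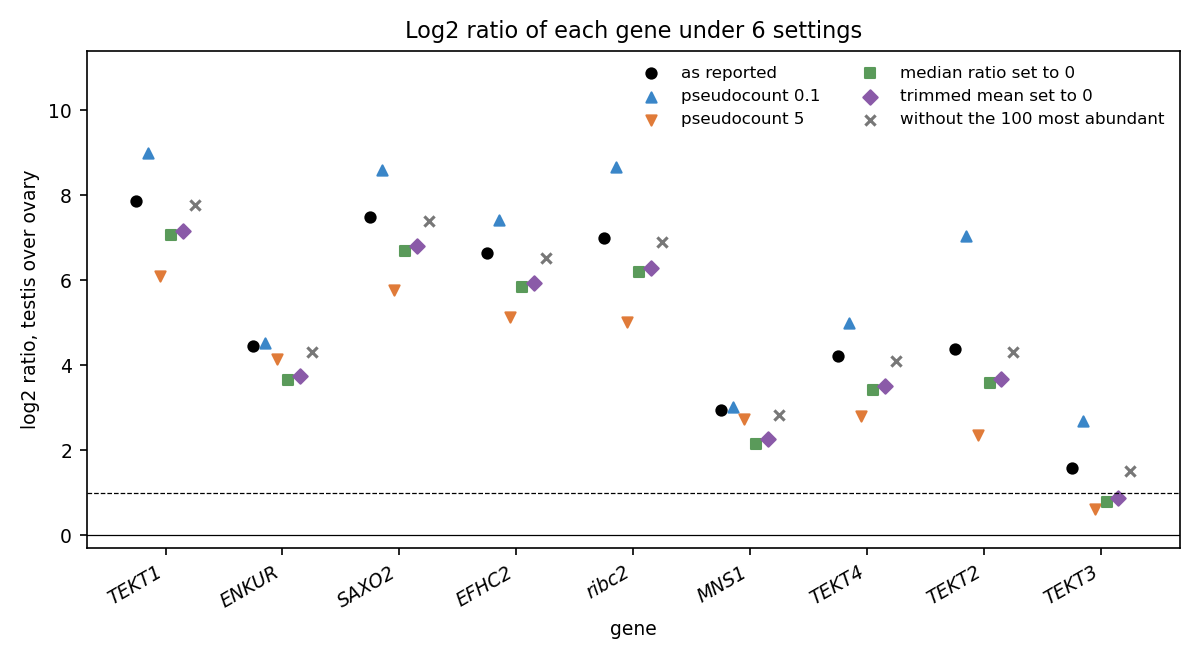
Log2 ratio of testis over ovary for each of the 9 genes as reported and under 5 other pseudocounts or scalings; the dashed line marks 2-fold. Every value lies above 0, TEKT3 is below the dashed line under 3 of the settings, and the pseudocount moves TEKT2 the most, to 7.05 with 0.1 FPKM and 2.37 with 5 FPKM.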

How the data were processed

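Libraries of Trizol-extracted RNA followed BGISEQ-500 protocols, per the labels' protocols. HISAT, Bowtie2, RSEM and the build GRCz10 are named in the submitters' processing notes. The sources used here do not give versions, settings, strand handling or annotation. The authors deposited 1 FPKM column per organ, with 2 decimals and a smallest value of 0.01 (430 genes in testis, 3540 in ovary), which was read as standing for 0. The absolute depth of the libraries is unknown; their relative depth came from steps between low values, scoring ratios of 1, 2 and 3 reads.

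Symbols came from a table that named 21881 of 24539 identifiers; list entries were matched by symbol or by 1 RefSeq synonym. Log2 ratios are of testis over ovary, each with 1 FPKM added, which understates the change of low genes. Calls needed 2-fold and 1 FPKM in the higher library. With 1 library per organ there was no test. The calculation was tested on simulated data. Named genes were all members, the 10 most abundant of the other inner microtubule list, the 3 most abundant of each further list, a list's exceptions where there were 5 or fewer, and the 8 nearest genes; some of the genes so chosen, among them 2 of the 23 measured genes of the other inner microtubule list, which are counted but not plotted, are not reported here. The members and lists were chosen with earlier results of these data known. Planned comparisons of promoter motifs and of tektin protein sequences were not run. Python 3.11.15, numpy 2.4.6, pandas 2.3.3 and matplotlib 3.10.9 were used.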

Additional observations from a re-analysis of the deposited data

How the results depend on the processing

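Direction held for each of the 9 genes in the 45 values recomputed with another pseudocount or scaling (log2 ratio 0.61 to 8.99). The count of 9 higher in testis became 8, without TEKT3, with a pseudocount of 5 FPKM, a minimum of 5 FPKM, a 4-fold rule, centring on the median ratio of tested genes (a shift of 0.80) and centring on the trimmed mean (a shift of 0.70); all 23 other inner microtubule genes stayed higher in testis under every setting tried. Medians below are in the order tektin and inner microtubule genes, other inner microtubule genes, radial spoke and nexin-dynein genes, axonemal dyneins, ciliary regulators, and microtubule genes outside cilia. They were 7.05, 7.11, 7.16, 6.45, 3.96 and 1.77 with a pseudocount of 0.1 FPKM, and 4.16, 4.62, 4.09, 3.42, 1.44 and 0.49 with 5 FPKM. They were 3.65, 5.23, 4.91, 4.34, 1.45 and 0.042 when all tested genes were centred on their median. Centring on the trimmed mean gave 3.75, 5.34, 5.01, 4.44, 1.56 and 0.14. Rescaling after removal of the top 100 genes by level in each library, 186 genes in all, gave 4.32, 5.96, 5.62, 5.06, 2.16 and 0.71. The median of the 9 genes was the lowest of the 4 axonemal lists as reported, but with a pseudocount of 5 FPKM it was above those of the radial spoke and dynein lists, and with 0.1 FPKM above that of the dyneins. Across all genes, 8587 (45.1% of the 19053 tested) were called higher in testis as reported and 4375 (23.0%) with a pseudocount of 5 FPKM. A minimum of 5 FPKM left 13266 tested genes, of which 5331 (40.2%) were called higher in testis. The count was 4106 (21.6%) with a 4-fold rule, 4777 (25.1%) after centring on the median and 5135 (27.0%) after centring on the trimmed mean. The count higher in ovary was 3162 as reported, 1180 with a 4-fold rule, 5779 after centring on the median and 5443 after centring on the trimmed mean. No paired analysis was possible because each organ has 1 library. The ovary values under 1 FPKM are the least precise, and the reads behind them are unknown.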
